A study of Bos taurus with 18 samples.

Results

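Mitochondrial ribosomal proteins were followed in day 7 bovine blastocysts as 67 genes, taken from 9155 genes with a named probe set. A gene was included when the platform annotation gave its probe set a single gene whose symbol begins with MRPL (large subunit) or MRPS (small subunit) and a digit. The 67 genes had 84 probe sets, and each gene was read from the probe set with the highest mean over all 18 arrays. By name, 43 genes belong to the large and 24 to the small subunit. The gene table of the bovine assembly ARS-UCD2.0 holds 78 such symbols, so 11 were not analysed here. All 67 genes lay in the brighter 50% of probe sets, with mean log2 values of 6.84 to 11.52, and no filter on dim signal was applied. None lay on the X or Y chromosome, and together they were spread over 24 chromosomes.

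The mitochondrial ribosome translates the few messages of the mitochondrial genome, all of which encode subunits of the oxidative phosphorylation complexes. Its ribosomal RNAs come from mitochondrial DNA, whereas all of its proteins are encoded in the nucleus, made in the cytosol and imported. The small subunit holds and decodes the message, and the large subunit carries the peptidyl transferase centre and the exit tunnel. Some of the proteins descend from bacterial ribosomal proteins and others are found only in mitochondrial ribosomes. In structures of mammalian mitochondrial ribosomes, MRPS30 and MRPS18A sit in the large subunit in spite of their names.

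The study compared female with male blastocysts produced in vitro with sex-sorted semen of 3 bulls. The 6 groups were females and males of bull 1, of bull 2 and of bull 3, with 3 arrays each, and thus 9 female and 9 male arrays. For each array, 60 blastocysts of mixed breed were pooled on day 7 after insemination and frozen, and the labels give no other treatment for any group. Each bull was a single sire, so a bull cannot be told apart from anything else that was particular to its embryo production. Whether the pools of one group stem from different fertilisation runs is not stated, and p-values therefore measure the spread between pools, which may be technical. In pools of whole embryos, fewer cells of a type and less RNA per cell cannot be told apart.

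XIST, the X-linked RNA expressed from an inactive X chromosome, averaged 9.21 ± 0.23 log2 on female arrays and 6.63 ± 0.50 log2 on male arrays (SD, n = 9 each), with no overlap. The epithelial keratin KRT18 (14.04 in females, 14.04 in males) and the pluripotency factor POU5F1 (11.93 in females, 11.93 in males) were bright in both sexes. Some other trophectoderm and inner cell mass markers were far dimmer. Among these were KRT8 (5.79 in females, 5.75 in males), ELF5 (3.70 in females, 3.57 in males) and SPP1 (5.64 in females, 5.08 in males). Of 8 measured trophectoderm markers (13 listed) 1 was higher and 2 were lower in females, and of 5 inner cell mass markers (8 listed) 2 were higher and none was lower. Of 7 primitive endoderm markers (8 listed) 1 was higher and 1 lower, and of 12 cumulus and granulosa cell markers 2 were higher and 1 lower. Of 6 sperm markers 2 were higher in females, PRM1 by 1.73 and TNP1 by 0.88 log2. The 2 lower ones were ODF2 (-0.25 log2) and SPA17 (-0.28 log2). Of 5 blood markers (6 listed) 2 were higher, HBB by 0.81 and HBA by 0.26 log2, and 1 was lower, CD68 (-0.43 log2). Of 7 oocyte markers 1 was higher, OOEP by 0.36 log2, and none was lower. The mean of the trophectoderm markers lay between 7.92 and 8.24 on female and between 7.84 and 8.31 on male arrays, and that of the inner cell mass markers between 9.45 and 9.70 on female and between 9.24 and 9.50 on male arrays. The part of cell composition in the differences below was not tested. On 4 arrays the values of all probe sets spread more widely around their medians over the arrays. The interquartile range was 0.267 to 0.349 log2 there, against at most 0.198 log2 elsewhere. The 4 arrays were female bull 1 replicate 3, male bull 1 replicate 2, male bull 2 replicate 1 and male bull 3 replicate 3.

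Between female and male blastocysts most mitochondrial ribosomal protein genes did not pass the test, and those that passed were nearly all lower in females, by small amounts. Of the 67 genes, 14 were lower in females, 1 was higher and 52 did not pass the test (limma, Benjamini-Hochberg adjusted p under 0.05 over 24016 probe sets). Over all probe sets 15.6% were called for sex, 8.12% higher and 7.47% lower in females. Among the brightest probe sets of all genes 20.8% were called, 11.5% higher and 9.31% lower in females. The 15 called mitochondrial ribosomal protein genes are 22.4% of the list, which is close to the 20.8% of genes, so the number of calls does not set the list apart. The directions were 20.9% of the list lower and 1.49% higher in females. In the brighter 50% of probe sets the shares were 12.2% lower and 12.0% higher.

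The fitted difference, female minus male, had a median of -0.08 log2 over the 67 genes, against -0.01 over all genes, -0.02 over autosomal genes and -0.03 over all probe sets. It was below 0 in 51 of 67 genes (76.1%), against 54.2% of all genes. The called differences ranged from 0.17 to 0.33 log2 in size, and the median standard error of the list was 0.060. All 15 called genes had the same direction in each of the 3 bulls. They were called on the mean over these same bulls, so that agreement is largely built in. In 13 of them the difference was closer to 0 in bull 3 than in bull 1. Female and male arrays did not overlap in 2 genes (2.99%), MRPL2 and MRPS6, where 2.92% of all probe sets had such a gap. Without the 4 arrays of wide spread the 15 calls remained and 7 more were added, giving 20 lower and 2 higher, and the median was -0.07. Calls over all probe sets also rose in that fit, in both directions. Whether the 7 added calls go beyond this general rise was not tested.

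**Figure D1:**
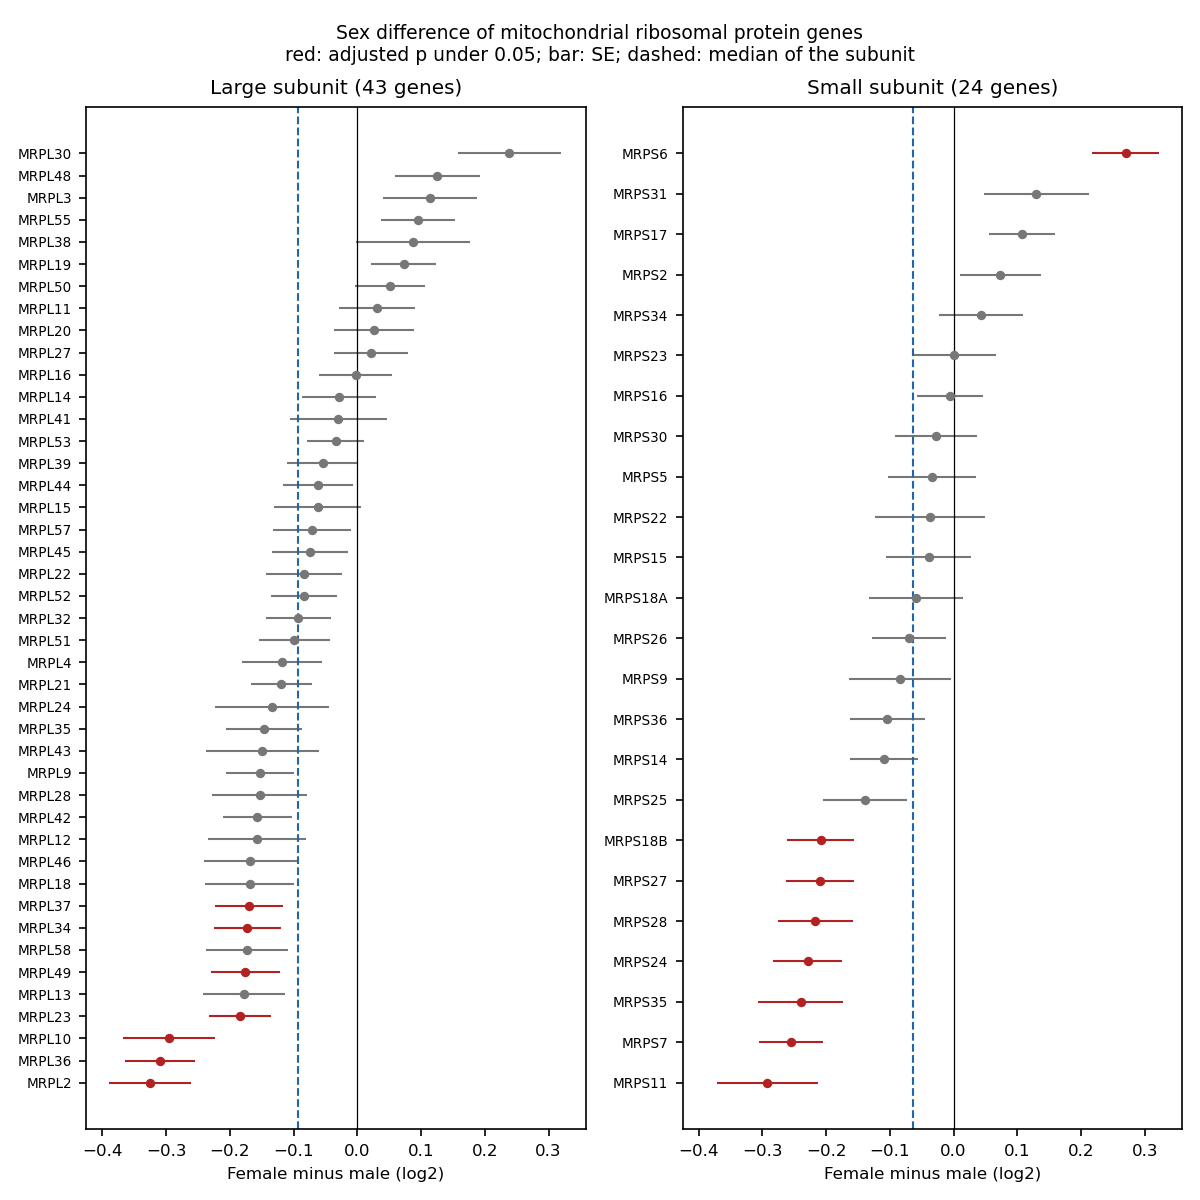
Fitted sex difference (female minus male, log2) of the 43 large subunit genes (left) and the 24 small subunit genes (right), with standard errors. Red points passed the adjusted p threshold of 0.05, 14 below 0 and 1, MRPS6, above 0, and the dashed lines mark the medians of -0.09 for the large and -0.06 for the small subunit.

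In the large subunit 7 of 43 genes were lower in females and none was higher. MRPL2, on chromosome 23, encodes a protein next to the peptidyl transferase centre. Its log2 values had a lowest, median and highest of 9.32, 9.48 and 9.67 in females and of 9.69, 9.73 and 10.10 in males. All 9 female arrays lay below all 9 male arrays. The difference was -0.33 ± 0.06 (SE; limma adjusted p = 0.00139), and it was -0.42 in bull 1, -0.30 in bull 2 and -0.26 in bull 3.

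MRPL36, on chromosome 20, is a small protein with a bacterial counterpart. It had a lowest, median and highest value of 8.80, 8.94 and 9.06 in females and of 9.04, 9.24 and 9.39 in males. The groups touched only at their edges, with 8 of 9 female arrays below every male array. The difference was -0.31 ± 0.05 (SE; limma adjusted p = 0.000516), with -0.41, -0.32 and -0.20 in bulls 1, 2 and 3.

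MRPL10, on chromosome 19, forms the base of the stalk that carries copies of MRPL12. Its values were 9.21, 9.37 and 9.44 (lowest, median, highest) in females and 9.43, 9.61 and 10.12 in males. Again 8 of 9 female arrays lay below every male array, while male bull 1 replicate 2 stood highest. The difference was -0.30 ± 0.07 (SE; limma adjusted p = 0.00801), and -0.24 without that array. MRPL12 itself was not called.

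MRPL23, on chromosome 29, lines the end of the exit tunnel. It reached 10.41, 10.46 and 10.67 (lowest, median, highest) in females and 10.63, 10.68 and 10.81 in males, and 8 of 9 female arrays were below every male array. The difference was -0.18 ± 0.05 (SE; limma adjusted p = 0.0137). The gene has 3 probe sets, and all 3 were called, with differences between -0.26 and -0.18.

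The other 3 large subunit genes that passed were close to the threshold. MRPL34, which has a bacterial counterpart, differed by -0.17 (limma adjusted p = 0.0313), MRPL37 by -0.17 (limma adjusted p = 0.0364) and MRPL49 by -0.18 (limma adjusted p = 0.0328). MRPL37 and MRPL49 are found only in mitochondrial ribosomes. In females their median values were 9.72 for MRPL34, 9.97 for MRPL37 and 9.22 for MRPL49, against 9.89, 10.15 and 9.40 in males, and the sexes overlapped in each. Leaving out 1 array at a time, MRPL34 was lost in 9 of 18 fits (adjusted p up to 0.0726), MRPL37 in 11 (up to 0.0818) and MRPL49 in 13 (up to 0.0715).

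**Figure D2:**
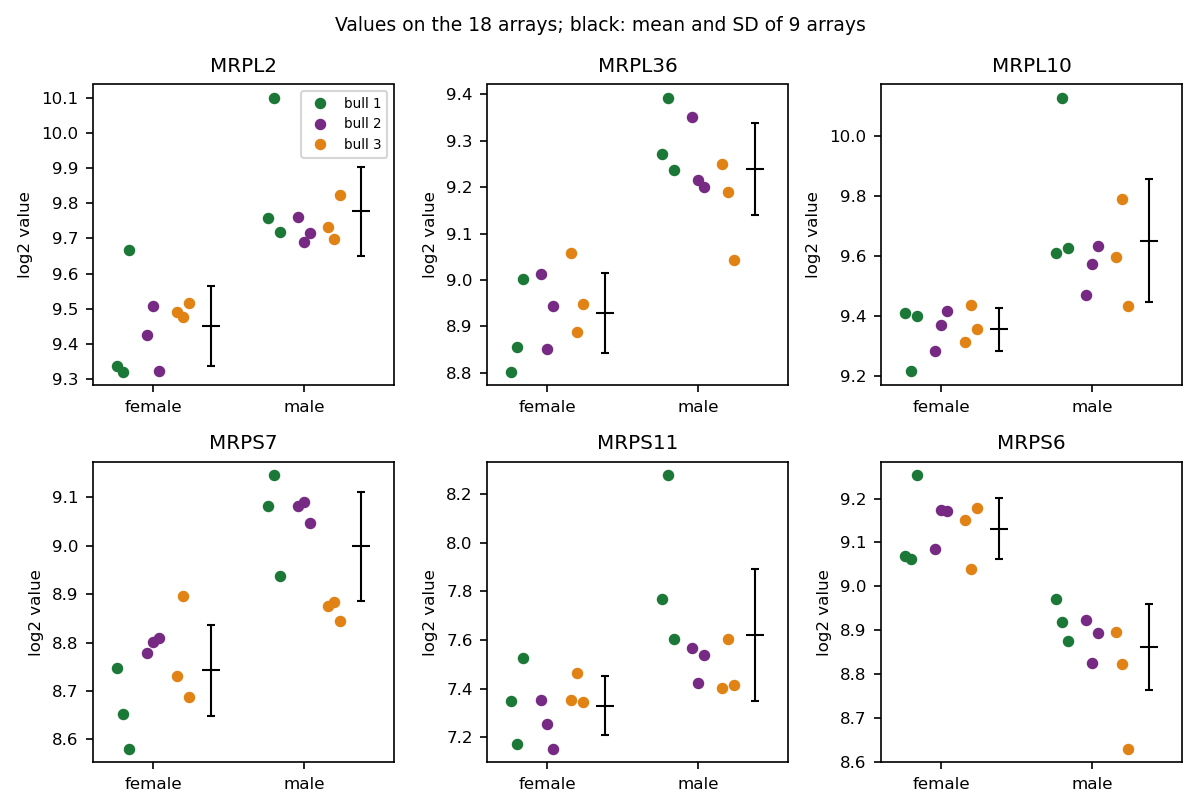
Log2 values of 6 genes on the 18 arrays, female left and male right, coloured by bull, with the mean and SD of 9 arrays in black. MRPL2 and MRPS6 show no overlap between the sexes, and male bull 1 replicate 2 is the highest point of MRPL2 (10.10), MRPL10 (10.12) and MRPS11 (8.28).

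In the small subunit 7 of 24 genes were lower in females and 1 was higher. MRPS7, on chromosome 19, binds the small ribosomal RNA in the head of the subunit. Its lowest, median and highest values were 8.58, 8.75 and 8.90 in females and 8.84, 9.05 and 9.14 in males. Only 1 female array, replicate 2 of bull 3, lay within the male range. The difference was -0.26 ± 0.05 (SE; limma adjusted p = 0.00137), with -0.39 in bull 1, -0.28 in bull 2 and -0.10 in bull 3.

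MRPS11, on chromosome 21, is a protein of the platform. It had values of 7.15, 7.35 and 7.52 (lowest, median, highest) in females and of 7.40, 7.57 and 8.28 in males. The female range ended inside the male range, and male bull 1 replicate 2 stood far above the other males. The difference was -0.29 ± 0.08 (SE; limma adjusted p = 0.0156). Without male bull 1 replicate 2 it was -0.23 (limma adjusted p = 0.0144).

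MRPS24, the counterpart of bacterial S3 on chromosome 22, had medians of 9.81 in females and 10.07 in males and a difference of -0.23 ± 0.05 (SE; limma adjusted p = 0.00656). MRPS18B, on chromosome 23, is one of the mitochondrial proteins related to bacterial S18. It had medians of 9.95 in females and 10.14 in males, and differed by -0.21 ± 0.05 (SE; limma adjusted p = 0.00917). The related MRPS18A, found in the large subunit, was not called, with a difference of -0.06. MRPS27, a pentatricopeptide repeat protein of chromosome 20, averaged 8.83 ± 0.09 in females and 9.04 ± 0.12 in males (SD, n = 9 each; -0.21, limma adjusted p = 0.0109). In these genes and in the next pair the ranges of the sexes overlapped.

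MRPS28, on chromosome 14, had medians of 7.93 in females and 8.21 in males, a difference of -0.22 (limma adjusted p = 0.0153). MRPS35, on chromosome 5, had medians of 8.08 in females and 8.26 in males, a difference of -0.24 (limma adjusted p = 0.0168). A further, dimmer probe set of each gene pointed the same way and did not pass, with -0.23 for MRPS28 and -0.17 for MRPS35.

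MRPS6, on chromosome 1, was the one called gene with higher values in females. It is the counterpart of bacterial S6, a protein of the platform. Its lowest, median and highest values were 9.04, 9.15 and 9.25 in females and 8.63, 8.89 and 8.97 in males. Every female array lay above every male array. The difference was 0.27 ± 0.05 (SE; limma adjusted p = 0.00137), with 0.21 in bull 1, 0.26 in bull 2 and 0.34 in bull 3.

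The next largest differences above 0 did not pass. MRPL30 had medians of 8.86 in females and 8.75 in males and a difference of 0.24 ± 0.08 (SE; limma adjusted p = 0.0533). MRPS31, MRPL48, MRPL3 and MRPS17 differed by 0.13, 0.13, 0.11 and 0.11 with adjusted p of 0.346, 0.2495, 0.358 and 0.193. Unadjusted p was under 0.05 in 24 of the 67 genes, 9 more than were called.

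Both subunits had medians below 0, and the difference between them was not tested. The median difference was -0.09 over the large and -0.06 over the small subunit, with 33 of 43 and 18 of 24 genes below 0. The gap between these medians, large minus small, was -0.03. The shares called went the other way, at 16.3% of the large and 33.3% of the small subunit, against 20.8% of all genes. Lower in females were 16.3% of the large and 29.2% of the small subunit, against 9.31% of all genes. On single arrays, the mean of the large minus that of the small subunit, after centring each gene, was -0.005 ± 0.023 log2 in females and 0.005 ± 0.026 log2 in males (SD, n = 9 each), with overlapping ranges. With MRPS30 and MRPS18A counted as large subunit proteins, as in structures, the medians were -0.08 for both. Without male bull 1 replicate 2 the small subunit median was -0.02, the large -0.08 and their gap -0.06. Among the 26 large subunit genes with a bacterial counterpart 5 were lower in females, with a median of -0.12, and among the 17 without one 2 were lower, with a median of -0.07. In the small subunit these were 5 lower and 1 higher of 14 with a counterpart (median -0.07) and 2 lower of 10 without one (median -0.05). Which proteins have a bacterial counterpart was assigned from general knowledge.

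Averaged over the list after centring each gene on its mean over all arrays, female arrays stood at -0.04 ± 0.06 and male arrays at 0.04 ± 0.10 log2 (SD, n = 9 each). The sexes overlapped on this mean. Male bull 1 replicate 2 was highest at 0.27, with 60 of 67 genes above their own mean. It is one of the arrays of wide spread, and it had the highest 5' minus 3' signal index of 3 control transcripts, 0.447, where male bull 3 replicate 3 had the lowest, -1.27. The part of this array's signal quality in the list's values was not tested. The 2 subunits moved together from array to array, and their means on an array differed by at most 0.04.

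**Figure D3:**
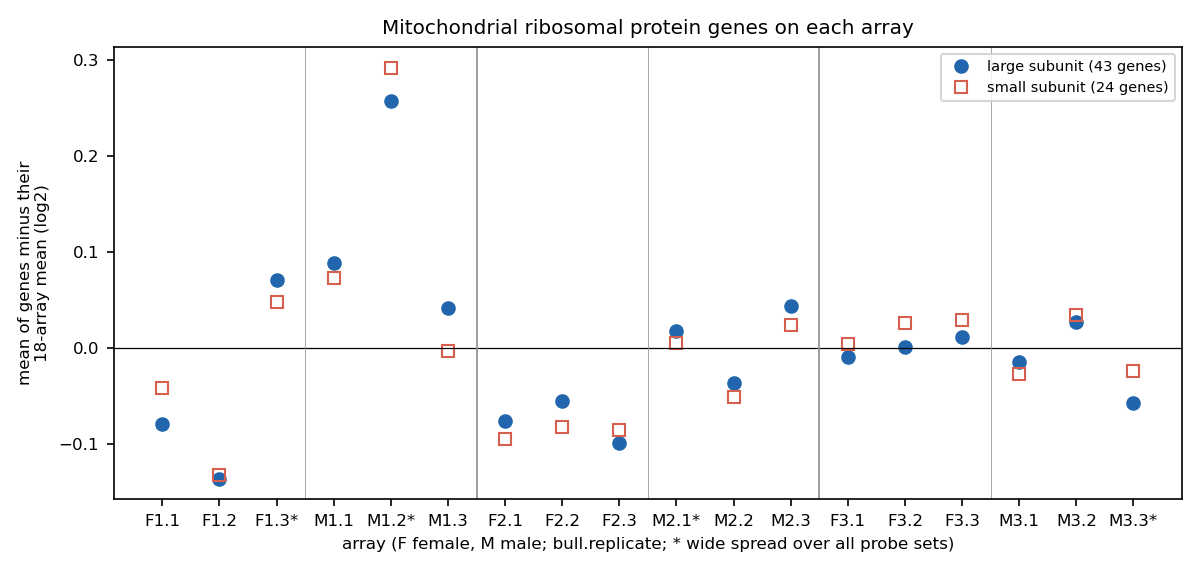
Mean of the large subunit genes (filled) and the small subunit genes (open) on each array, in log2 units relative to each gene's mean over 18 arrays. Asterisks mark the 4 arrays of wide spread, and male bull 1 replicate 2 (M1.2) is highest in both subunits, at 0.26 for the large and 0.29 for the small.

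Within bulls, the median female minus male difference of the 67 genes was -0.16 in bull 1, -0.09 in bull 2 and 0.01 in bull 3. For the large subunit it was -0.18, -0.11 and 0.00, and for the small subunit -0.14, -0.07 and 0.03. Over all genes the 3 medians were -0.02, -0.02 and 0.00. The difference was below 0 in 59 genes in bull 1, 50 in bull 2 and 29 in bull 3. In 51 of 67 genes it rose in the order bull 1, bull 2, bull 3, as it did in 21.3% of all genes, and in 65 of 67 it was lower in bull 1 than in bull 3, as in 53.0% of all genes. These genes share the same arrays and are not independent. Without male bull 1 replicate 2 the bull 1 median was -0.11. Without the 4 arrays of wide spread the medians were -0.15, -0.07 and 0.02, and 41 genes kept the order. The female minus male difference of the 5' minus 3' index had the same order over the bulls as these medians. The index averaged -0.21 in females and 0.01 in males of bull 1, -0.25 in females and -0.26 in males of bull 2, and -0.59 in females and -0.80 in males of bull 3. Across the arrays it followed the mean of the list with a Pearson r of 0.51 (n = 18), and of -0.09 without the 4 arrays of wide spread (n = 14). With the index as a covariate the medians were -0.13, -0.10 and -0.03, so that the order remained and the bull 3 median lay on the other side of 0.

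The difference between bulls was itself tested for each gene and did not pass in any. The interaction of sex and bull was called in 0 of 24016 probe sets by limma and by an analysis of variance without moderation, and 656 probe sets had an unadjusted p under 0.05. None of the probe sets that stand for the 67 genes was among them. Without the 4 arrays of wide spread 3 of the 67 genes had an unadjusted p under 0.05. Within bull 1, 4 genes were lower in females, MRPL2, MRPL36, MRPS7 and MRPS11, and none was higher, where 4.2% of probe sets were called, 2.74% higher and 1.46% lower. Within bull 2 no gene of the list was called by limma, and 11 had an unadjusted p under 0.05, where 3.13% of probe sets were called, 2.57% higher and 0.558% lower. Within bull 3 MRPS6 alone was called, higher in females by 0.34 (limma adjusted p = 0.0417), where 4.18% of probe sets were called, 2.65% higher and 1.53% lower. When the 6 arrays of each bull were fitted alone, 0 of the 67 genes passed in any bull by limma, where 1.21% of probe sets were called in bull 1, 3.92% in bull 2 and 2.48% in bull 3.

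**Figure D4:**
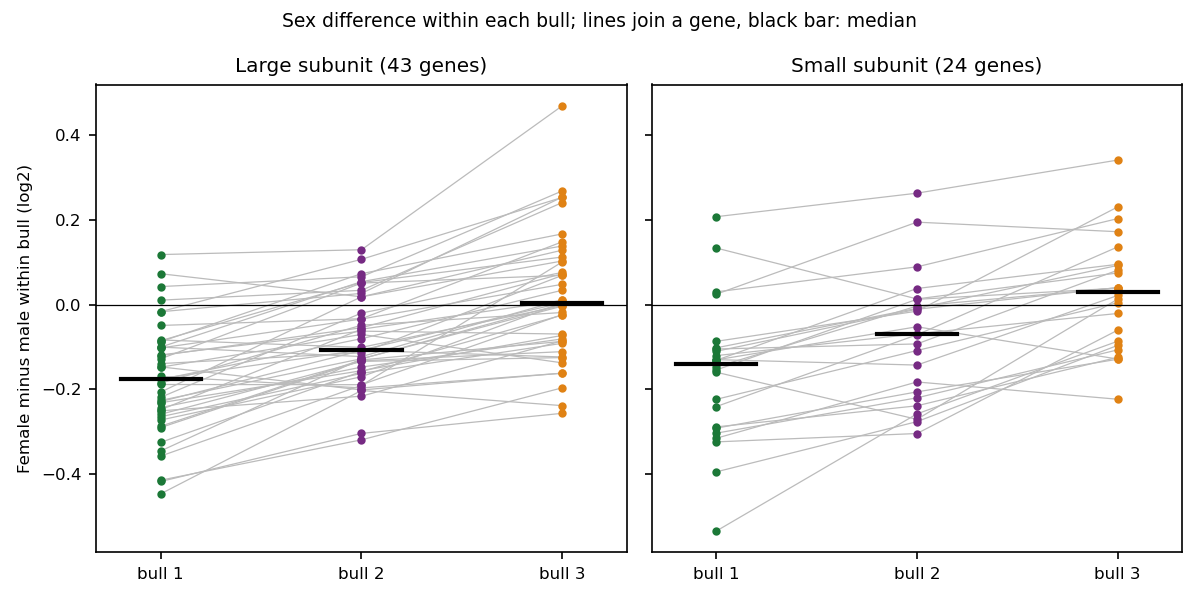
Female minus male difference (log2) of each gene within bull 1, bull 2 and bull 3, large subunit left and small subunit right. Lines join the values of a gene and black bars mark the medians, which are -0.18, -0.11 and 0.00 in the large and -0.14, -0.07 and 0.03 in the small subunit.

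Between bulls, over both sexes, few of these genes differed. MRPL57, a small protein found only in mitochondrial ribosomes, encoded on chromosome 12, averaged 8.71 ± 0.09 in bull 2 and 9.02 ± 0.17 in bull 1 (SD, n = 6 each). It was lower in bull 2 than in bull 1 by 0.31 log2 (-0.31, limma adjusted p = 0.0418), and it was the only one of the 67 genes called there, where 1.52% of probe sets were called. Bull 3 exceeded bull 2 in MRPL57 by 0.29 (limma adjusted p = 0.0367), again as the only call, where 3.74% of probe sets were called. Between bull 3 and bull 1 no gene of the list was called by limma (3.53% of probe sets), and 15 had an unadjusted p under 0.05. No gene was called between bull 2 and bull 1 in 14, and between bull 3 and bull 2 in 10, of 18 fits that left out 1 array. The medians of the list were -0.09 for bull 2 minus bull 1, -0.04 for bull 3 minus bull 1 and 0.04 for bull 3 minus bull 2, against -0.05, -0.02 and 0.03 over all genes. These 3 comparisons share arrays.

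Several probe sets were present for 14 of the 67 genes. Their sex differences had opposite signs in 4 genes, MRPL30, MRPL46, MRPS2 and MRPS9, and in none of these was a probe set called. The call differed between probe sets in 3 genes. Beside MRPS28 and MRPS35 this was MRPL57, whose brighter probe set gave -0.07 (limma adjusted p = 0.520) and whose dimmer one gave -0.32 (limma adjusted p = 0.00161). Which transcripts each probe set reads was not examined.

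Across the 18 arrays the 67 genes varied together. The median Pearson r over their 2211 pairs was 0.36, against 0.05 over all pairs of genes. It was 0.35 within the large subunit, 0.33 within the small subunit and 0.36 between the subunits. The points share arrays and normalization, and without the 4 arrays of wide spread the median was 0.27, against 0.01 over all genes. Set against the mean of the other 66 genes, 42 had an r over 0.5. MRPS11 followed the others most closely (r = 0.94, and 0.88 without the wide arrays). MRPS6 (r = -0.19) and MRPS2 (r = -0.11), a small subunit protein with a bacterial counterpart, were the ones below 0. Without the wide arrays MRPS6 had r = -0.46 and MRPS2 r = -0.37, and MRPL38 (r = -0.40) and MRPL20 (r = -0.03), both of the large subunit, were also below 0. Within the 6 groups, as deviations from the group means, MRPS6 had r = 0.43.

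Nuclear genes of the oxidative phosphorylation complexes gave values close to those of the mitochondrial ribosome. Of 79 measured, 10 were lower and 3 higher in females, 16.5% of them against 20.8% of all genes. Their median was -0.08, with within-bull medians of -0.15, -0.10 and 0.02 in bulls 1, 2 and 3. Of 69 cytosolic ribosomal protein genes, 1 was lower and 4 were higher in females, 7.25% of them. Their median was -0.03, with within-bull medians of -0.06, -0.04 and 0.01. The differences between these lists were not tested. Both lists varied together across arrays much as the mitochondrial ribosomal genes did, with a median r of 0.35 for oxidative phosphorylation and 0.34 for cytosolic ribosomal proteins.

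Genes that act with the mitochondrial ribosome were described from further lists. Over all genes 20.8% were called for sex, 9.31% lower and 11.5% higher in females. Beside the members, 5 ribosomal proteins without an MRPL or MRPS name were measured, and 2 (40%) were lower in females. These were the small subunit protein PTCD3 (-0.26, limma adjusted p = 0.0136) and the large subunit protein GADD45GIP1 (-0.28, limma adjusted p = 0.0222). Of 12 measured translation factors and partners (14 listed) 3 were lower (25%) and none was higher. LETM1, an inner membrane protein, stood at 8.29 ± 0.09 in females and 8.67 ± 0.16 in males (SD, n = 9 each), with no overlap and a difference of -0.38. The sexes did not overlap in 2.92% of all probe sets. The elongation factor GFM1 differed by -0.29 and the membrane insertase OXA1L by -0.16.

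Of 19 measured assembly and ribosomal RNA modification genes (23 listed) 4 were lower and 1 was higher in females, 26.3% of them against 20.8% of all genes. The RNA methyltransferase MRM2 (-0.42), the pseudouridine synthase family member TRUB2 (-0.31), MTERF3 (-0.19) and the RNA helicase DHX30 (-0.24) were lower, and the RNA-binding protein FASTKD2 was higher (0.20). Of 15 measured mitochondrial aminoacyl-tRNA synthetase and amidotransferase genes (20 listed) 4 were lower (26.7%) and none was higher. AARS2, for alanine, stood at 6.82 ± 0.13 in females and 7.25 ± 0.17 in males (SD, n = 9 each), a difference of -0.43. Its sexes did not overlap, as in 2.92% of all probe sets. LARS2, for leucine, differed by -0.61, TARS2, for threonine, by -0.31 and the amidotransferase subunit GATB by -0.22. Of 10 measured genes of mitochondrial transcription and message stability (17 listed) 1 passed (10%), the transcription factor NRF1. It was higher in females (6.22 ± 0.16) than in males (5.83 ± 0.19; SD, n = 9 each), by 0.38.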

How the data were processed

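Labelled copies made by linear amplification of 50 ng of RNA from each of 18 pools were put on Affymetrix bovine arrays (per the labels). The authors deposited log2 values per probe set. RMA and Partek 6.4 appear in the submitters' processing notes with no stated role. That the scale is log2 rests on the values (1.89 to 14.15). The arrays' medians lay between 5.33 and 5.49, so their distributions were close but not identical. Where a normalization draws arrays together, a shift of all transcripts would not be seen. No batch or scan date was known.

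Of 24128 probe sets, 112 controls were left out. The platform annotation gives 1 gene for 13292 probe sets, several for 86 and none for 10638. A RefSeq table of ARS-UCD2.0 gave current symbols and chromosomes through the gene number (13263 matched). The model (limma 3.58.1, R 4.3.3, lmFit and eBayes) held 1 mean per group, 6 in all, with 12 residual degrees of freedom, with Benjamini-Hochberg adjustment over 24016 probe sets and a threshold of 0.05. Members and lists were chosen with earlier results of these data known. The text names the members called for sex, the 6 largest differences per direction, up to 5 called per direction in a bull contrast, members whose probe sets disagree, the extremes of correlation with the other members, up to 5 called genes per further list, and XIST. MRPL12 and MRPS18A are named as partner and relative of called members, and MRPL38, MRPL20 and the cell type markers were picked after their values were seen. Promoter and protein sequences were not used here. On simulated data the fit called 30% of 100 sex differences of 0.25 log2 and 80% of 100 of 0.5 log2. A gene that did not pass is thus not shown to be unchanged. Precision is limited by how many arrays there are. Figures were drawn with matplotlib 3.10.9. Alternatives were another model, no moderation, a brightness filter, quantile normalization, an intensity trend, array weights, other choices of probe set, a replicate block, and arrays or bulls left out. Those without the 4 arrays of wide spread and with the 5' minus 3' index were chosen after seeing the data.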

Additional observations from a re-analysis of the deposited data

Results flagged for a closer look

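For the named genes and the mean over all 67 genes, the female and the male arrays (9 each) were checked for a highest or lowest array whose gap to its neighbour exceeded Dixon's 95% critical value, as a share of the range. Of 42 such groups 12 exceeded it, where chance gives about 1 in 20. Within each sex the bulls were pooled for this check.

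Male bull 1 replicate 2 was the highest male array in 6 of these, as a high value for the mean of the list (0.270 log2 above the genes' means), MRPL2 (10.10), MRPL3 (10.40), MRPS11 (8.28), MRPS27 (9.30) and MRPS31 (10.03). Female bull 1 replicate 3 was the highest female array for MRPL3 (10.42) and MRPL37 (10.24) and the lowest for MRPS35 (7.66). Male bull 3 replicate 3 was the highest male array for MRPL34 (10.15) and the lowest for MRPL48 (9.42) and MRPS6 (8.63). All 3 arrays are among the 4 of wide spread. Without these 4 arrays none of the 15 calls was lost.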

How the results depend on the processing

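No result changed direction past a threshold. The calls of MRPL2, MRPL36 and MRPS6 held under all 31 alternatives run on them. MRPL10 was lost only without bull 1 (adjusted p = 0.0560) and MRPS7 only without bull 2 (adjusted p = 0.0510). The other 10 calls were lost in several alternatives. MRPL23, MRPS11 and MRPS28 were lost without bull 1, without bull 2 and with the replicate block (adjusted p up to 0.188, 0.104 and 0.158), and MRPS18B, MRPS24 and MRPS27 without bull 1 and without bull 2 (up to 0.0985, 0.174 and 0.135). MRPS35 was lost without any 1 of the bulls (up to 0.0889). MRPL34, MRPL37 and MRPL49 were lost with the block, without bull 2 and without bull 3, and MRPL34 also without bull 1 (up to 0.243, 0.277 and 0.246).

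The 15 members called for sex became 24 with array weights, 7 without bull 1, 4 without bull 2 and 12 to 19 when 1 array was left out. Counts over all probe sets with array weights and without bull 1 are not given here. For these settings a general change in calls cannot be told apart from a change in the list. The 3743 probe sets called, of 24016, became 2044 without bull 2, 2182 without bull 3 and 3175 to 3983 with 1 array left out. With 1 probe set per gene 2222 of only 9155 were called, so that count is not a loss of calls. Of 9 pairs of a female and a male array with the same number and bull, 2 correlated over 0.1 (range -0.18 to 0.10). With 3 arrays per group these values cannot decide whether the replicate numbers pair the samples. With the replicate block 9 members were called, and the bull contrasts were not fitted with it. Quantile normalization gave 22 members (20 lower, 2 higher), where 2036 of all probe sets were higher and 1984 lower in females.

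The gap between subunit medians (large minus small) was -0.0552 with array weights and ran from -0.0611 to -0.0175 with 1 array left out. With 1 array left out the median of the list ran from -0.10 to -0.06. The bull 3 median, close to 0, changed sign with the 5' minus 3' index.

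The single call between bull 2 and bull 1 became 0 by analysis of variance, without the wide arrays and with the 5' minus 3' index. It became 2 in the brighter 50% of probe sets, with an intensity trend, array weights or 1 probe set per gene. Between bull 3 and bull 1, 0 calls became 5 in the brighter 50%, with a trend or array weights, and 2 by quantile normalization, with 1 probe set per gene and without the wide arrays. Between bull 3 and bull 2, 1 call became 6 with array weights, 2 without the wide arrays and 0 with the index. With 1 array left out these 3 counts ran from 0 to 3, 0 to 3 and 0 to 2. Counts over all probe sets under the same settings are not set beside these, so general changes in calls cannot be told apart from changes in the list. The cause of these changes was not tested.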
